A study of Mus musculus with 20 samples.

Results

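Distal sites shared by CBP and ETS1 were 218 of the 2359 peaks in the ETS1 list. They were chosen by peak overlap, as the ETS1 peaks that overlapped a CBP peak by 1 bp or more and overlapped no H3K4me3 peak. In all, 911 ETS1 peaks lay outside H3K4me3, and the 693 of these without a CBP peak, called CBP-free sites here, served for comparison. A further 464 ETS1 peaks carried a CBP peak inside H3K4me3. Distal therefore means only that the ETS1 peak lay outside H3K4me3 peaks, and its CBP peak could still overlap one. Co-bound means that peaks from separate immunoprecipitations overlapped. The rule used the presence of ETS1, CBP and H3K4me3 peaks, so these are descriptions of the choice and not results.

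The cells were CD4+/CD8+ double-positive (DP) T cells from the thymus of wild-type C57BL/6 mice of 5 to 6 weeks, with no treatment named in the labels. They had been selected with magnetic beads for CD8 and then for CD4. Of 20 samples, 16 had a peak list, 1 per target, from chromatin immunoprecipitation and sequencing (ChIP-seq) or from FAIRE, which recovers open chromatin without an antibody. The remaining 4 samples (2 RNA libraries and the input and immunoglobulin controls) were not analysed here. There was 1 genotype and 1 condition, so sites were compared within these cells and not between treatments. By file and track names, 13 lists rest on merged replicates, and the lists for TFIIB, Taf1 and CBP on a single replicate. No spread between replicates could therefore be measured and no p-value is given. The depth behind each list is unknown, and the purity of the sorted cells was not checked on marker genes because no gene annotation of the build was used here.

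ETS1 is a DNA-binding transcription factor of the ETS family with roles in T-cell development. CBP is a coactivator and histone acetyltransferase that is brought to promoters and enhancers by DNA-binding factors and is widely used as a mark of enhancers. At start sites TBP binds first, TFIIA and TFIIB join it, RNA polymerase II (Pol II) arrives with TFIIF, and TFIIE and TFIIH complete the complex. H3K4me3 marks active promoters, and H3K4me1 without H3K4me3 is found at many enhancers.

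The 218 co-bound sites were more often open and more often carried initiation factors than CBP-free sites, while the difference in the share with H3K4me1 did not pass in the main setting. FAIRE peaks lay at 58.3% of co-bound and 30.6% of CBP-free sites. TFIIB peaks lay at 53.7% and 24.8%, TFIIE peaks at 34.9% and 14.1%, TBP peaks at 35.3% and 19.6%, and total Pol II peaks at 22.9% and 10.2%. H3K4me1 peaks lay at 82.1% and 86.4%. Of 13 lists compared, 8 were more frequent at co-bound sites, 0 were less frequent and 5 did not pass. This tally is for the main setting: the calls for Ser5P and TFIIA were each lost in 5 of 16 alternatives, and H3K4me1 passed as less frequent at co-bound sites in 5 of 13. Sizes also depended on list length. With the FAIRE and factor lists cut by area to the 1262 peaks of the shortest, the shares and their differences were smaller. The intervals of the differences still left out 0. FAIRE then lay at 17.9% of co-bound and 2.74% of CBP-free sites, TFIIB at 5.05% and 1.44%, and TFIIE at 7.80% and 1.01%. TBP lay at 2.29% and 0.289%, and total Pol II at 2.75% and 0.0%. The differences were 15.1 points for FAIRE (10.4 to 20.9), 3.60 for TFIIB (1.10 to 7.42) and 6.79 for TFIIE (3.73 to 11.2). They were 2.00 points for TBP (0.492 to 4.97) and 2.75 for total Pol II (1.17 to 5.87).

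Shares carry 95% Wilson intervals and differences 95% Newcombe intervals. A difference was called when its interval left out 0, with no adjustment for the 13 lists. The intervals cover counting error only, because peaks of 1 list are not replicates.

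**Figure D1:**
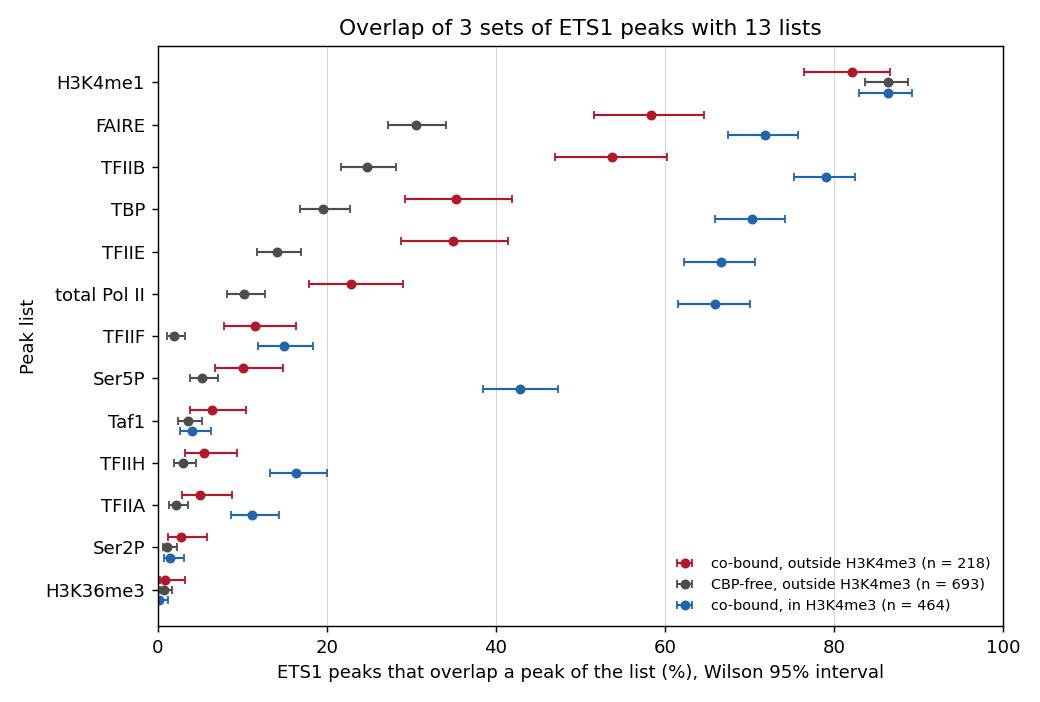
Share of ETS1 peaks that overlapped each of 13 lists (x axis, percent, with 95% Wilson intervals) for 218 co-bound distal sites, 693 CBP-free distal sites and 464 co-bound sites in H3K4me3. The co-bound distal points lie between the other sets for FAIRE (58.3%, against 30.6% and 71.8%) and total Pol II (22.9%, against 10.2% and 65.9%).

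Chromatin state was described first. FAIRE peaks were found at 127 of the 218 co-bound sites (58.3%, 51.6 to 64.6) and at 212 CBP-free sites, a difference of 27.7 points (20.2 to 34.8). Over all 911 distal ETS1 peaks the FAIRE share was 37.2%. The FAIRE peaks at co-bound sites also stood higher in their own list. Their median position by area was 19.8% from the top, against 45.2% at CBP-free sites, and 33 of 127 belonged to the upper 10% of the FAIRE list, against 16 of 212.

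H3K4me1 peaks were found at 179 co-bound sites (82.1%, 76.5 to 86.6), against 85.4% over all distal ETS1 peaks. The difference from CBP-free sites was -4.33 points (-10.4 to 0.964). Its sign was negative under every alternative that was run, and its interval left out 0 in 5 of 13, among them after matching on ETS1 area, with -7.17 points (-12.7 to -1.67). On autosomes the difference was -1.67 points (-7.39 to 3.07), and at sites with a FAIRE peak -0.175 (-7.68 to 6.38). The H3K4me1 peaks themselves were wider at co-bound sites, with a median of 2680 bp against 2040 bp. They also stood higher in the H3K4me1 list, with a median position of 3.74% from the top against 7.43%. H3K36me3, a mark of transcribed gene bodies, was found at 2 co-bound sites (0.917%) and 5 CBP-free sites, with 0.768% over all distal ETS1 peaks. That difference, 0.196 points (-0.969 to 2.60), was not distinguishable from 0.

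Around the ETS1 centre, H3K4me1 covered the co-bound sites with a shallow dip. It covered 75.2% of co-bound centres and reached 79.6% at 300 bp. At CBP-free sites it covered 83.5% of centres and reached 84.8% at 200 bp. Farther out the order turned, with 71.3% against 56.2% at 1000 bp and 36.5% against 22.6% at 3000 bp. FAIRE, TFIIB, TBP and total Pol II were highest at the centre in both sets. FAIRE covered 48.6% of co-bound and 24.0% of CBP-free centres, and TFIIB covered 44.0% and 18.6%. At 1000 bp from co-bound centres FAIRE had fallen to 1.15% and TFIIB to 0.459%.

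**Figure D2:**
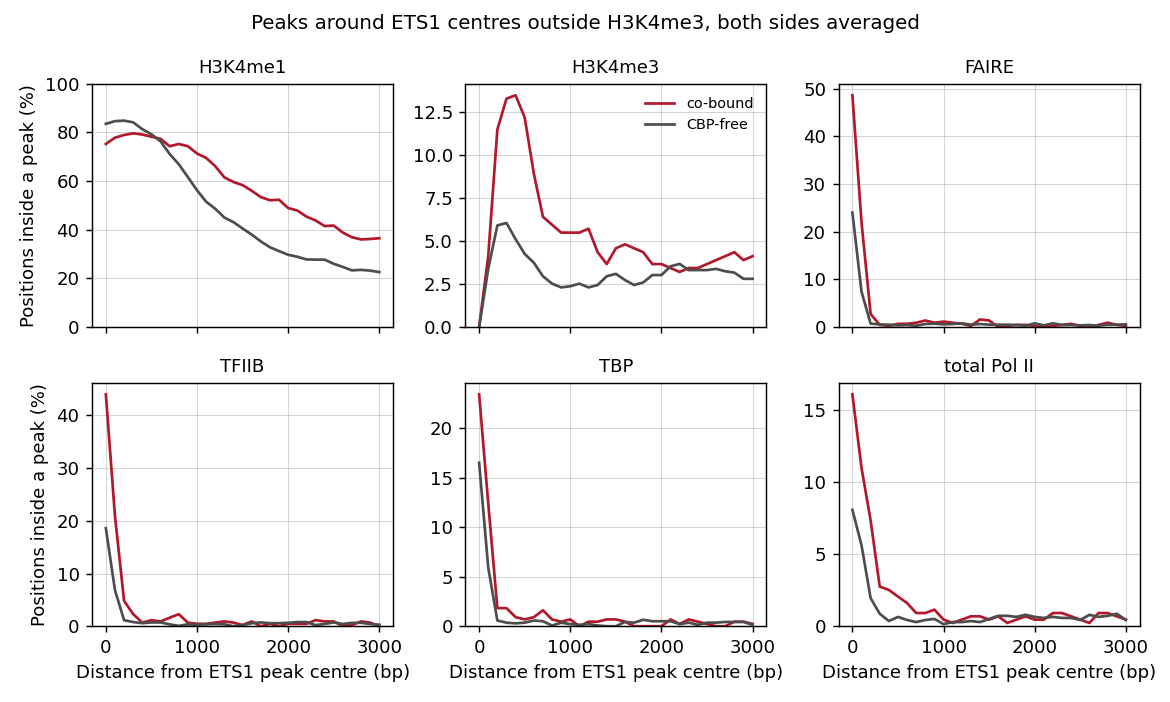
Share of sites covered by a peak (y axis, percent) against distance from the ETS1 centre (x axis, bp, both sides averaged, steps of 100 bp, y axis scaled per panel) for co-bound and CBP-free distal sites. H3K4me1 is lower at co-bound centres (75.2% against 83.5%) and higher at 1000 bp (71.3% against 56.2%), and FAIRE and TFIIB are highest at the centre.

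Combining H3K4me1 and FAIRE, 113 of the 218 co-bound sites (51.8%) had both, 66 (30.3%) had H3K4me1 only, 14 (6.42%) had FAIRE only and 25 (11.5%) had neither. At CBP-free sites the most common state was H3K4me1 without FAIRE, at 410 of 693 (59.2%), and 189 (27.3%) had both. Sites with H3K4me1, FAIRE and TFIIB together were 70 of 218 (32.1%) among co-bound and 59 of 693 (8.51%) among CBP-free sites. Among the 127 co-bound and 212 CBP-free sites that had a FAIRE peak, TFIIB lay at 62.2% and 32.1%, a difference of 30.1 points (19.3 to 40.0). FAIRE strength was not matched there.

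The 25 co-bound sites with neither mark were narrow, with a median ETS1 width of 40 bp, and stood low in the ETS1 list, with a median position 89.2% from the top. Of these, 11 lay on chromosome X or Y. TFIIB was listed at 11 (44.0%) and Taf1, the largest subunit of TFIID, at 8 (32.0%). TBP, TFIIA, TFIIE, TFIIF, TFIIH and Ser5P were found at 0 of 25, which allows a share of up to 12.0%. The 71 CBP-free sites with neither mark had similar traits, with a median width of 50 bp, a median position of 87.0%, 17 on X or Y, TFIIB at 26.8%, Taf1 at 19.7% and TBP at 5.63%. With sites of this state left out of both sets, an alternative chosen after seeing the data, the TFIIB difference was 30.3 points (22.4 to 37.9).

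Initiation factors were taken in order of assembly. TBP, which nucleates the complex, was found at 77 co-bound sites (35.3%, 29.3 to 41.9), with 23.4% over all distal ETS1 peaks. The difference from CBP-free sites was 15.7 points (8.90 to 22.8). Taf1 was found at 14 co-bound sites (6.42%, background 4.28%) and did not pass, with 2.81 points (-0.237 to 7.04), though it passed in 5 of 16 alternatives. Only 3 of the 14 Taf1 sites also had a TBP peak, as did 1 of the 25 CBP-free sites with Taf1.

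TFIIA, which stabilises TBP on DNA, was rare, at 11 co-bound sites (5.05%, background 2.85%), with a difference of 2.88 points (0.282 to 6.74). After matching on ETS1 area the TFIIA difference no longer passed, at 2.43 points (-0.821 to 5.68). TFIIB, which links TBP to Pol II, had the highest share of the 6 general factors with the full lists. With lists of equal length it was at 5.05% of co-bound sites, below TFIIE at 7.80% and TFIIF at 11.5%. With the full list TFIIB lay at 117 co-bound sites (53.7%, 47.0 to 60.2), against 31.7% over all distal ETS1 peaks, a difference of 28.9 points (21.4 to 36.0). TFIIB came with TBP at 58 of these sites and with total Pol II at 36. At 50 of them (22.9% of co-bound sites) it came with neither. Of the 172 CBP-free sites with TFIIB, 61 had TBP, 41 had total Pol II and 104 had neither.

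Total Pol II was found at 50 co-bound sites (22.9%, 17.9 to 29.0), with 13.3% over all distal ETS1 peaks and a difference of 12.7 points (7.03 to 19.0). TBP came without total Pol II at 42 co-bound sites and with it at 35, and total Pol II came without TBP at 15. At CBP-free sites these counts were 83, 53 and 18. Pol II phosphorylated on serine 5 (Ser5P), the form near initiation, lay at 22 co-bound sites (10.1%, background 6.37%), a difference of 4.90 points (1.05 to 9.82). That call was lost in 5 of 16 alternatives, for example at sites with a FAIRE peak, with 3.48 points (-2.68 to 10.7). Pol II phosphorylated on serine 2 (Ser2P), the elongating form, lay at 6 co-bound sites (2.75%, background 1.54%) and did not pass, with 1.60 points (-0.254 to 4.77).

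TFIIF, which accompanies Pol II into the complex, was found at 25 co-bound sites (11.5%, background 4.17%) and 13 CBP-free sites (1.88%), a difference of 9.59 points (5.78 to 14.6). TFIIF coincided with TFIIB at 18 of its 25 co-bound sites and with total Pol II at 9. Of its 13 CBP-free sites, 6 had TFIIB and 4 had total Pol II. TFIIE, which recruits TFIIH, was found at 76 co-bound sites (34.9%, background 19.1%), a difference of 20.7 points (14.1 to 27.7). TFIIE and TFIIB shared 60 co-bound sites (27.5%) and 51 CBP-free sites (7.36%). TFIIH, which holds the DNA-opening helicase and a Pol II kinase, was found at 12 (5.50%, background 3.62%) and did not pass, with 2.47 points (-0.327 to 6.48).

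Counted together, TFIIA, TFIIB, TFIIE, TFIIF, TFIIH and Taf1, the 6 general factors other than TBP, averaged 1.17 per co-bound site (SD 1.10 over sites) and 0.496 per CBP-free site, a difference of 0.673 (0.516 to 0.830). With lists of equal length the difference was 0.240 (0.151 to 0.330). At least 1 of them was present at 147 co-bound sites (67.4%) and at 245 CBP-free sites (35.4%). With TBP, total Pol II and Ser5P added to make 9 lists, 59 co-bound sites (27.1%) had none, against 389 CBP-free sites (56.1%). Sites with 3 or more of the 9 numbered 70 in each set, which was 32.1% of co-bound and 10.1% of CBP-free sites. TBP, total Pol II, TFIIB and TFIIE met at 20 co-bound (9.17%) and 28 CBP-free sites (4.04%).

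**Figure D3:**
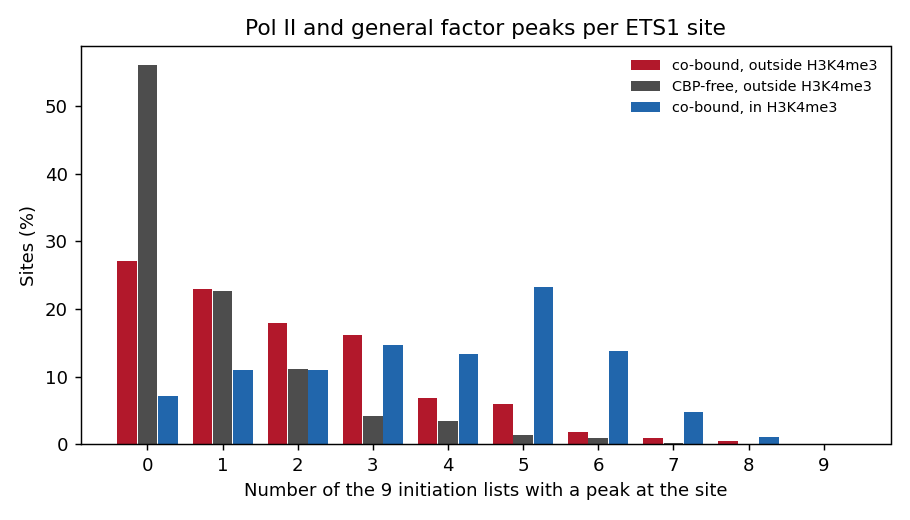
Share of sites (y axis, percent) by the number of the 9 initiation lists with a peak there (x axis) for co-bound distal, CBP-free distal and co-bound H3K4me3 sites. None of the 9 was found at 27.1%, 56.1% and 7.11% of sites.

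Co-bound sites inside H3K4me3 carried more of the machinery still. They exceeded the distal co-bound sites by 43.0 points for total Pol II (35.5 to 49.6), 34.9 for TBP (27.1 to 42.2), 32.8 for Ser5P (26.3 to 38.4), 31.7 for TFIIE (23.8 to 39.0) and 25.4 for TFIIB (17.8 to 32.9). The gap was smaller for FAIRE, at 13.5 points (5.86 to 21.2). For TFIIF it was 3.40 points (-2.33 to 8.43) and for Taf1 -2.33 (-6.65 to 1.05), and neither left out 0. On average the sites in H3K4me3 had 1.92 of the 6 general factors.

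Positions in the ETS1 and CBP lists were taken from the authors' peak areas, as rank divided by list length with 0% at the top. The rule used the presence of these peaks, so their positions are given without a test. The co-bound sites spanned nearly the whole ETS1 list, from rank 8 to rank 2356 of 2359. Their median position was 43.7% (quartiles 21.0 and 72.7), against 63.9% at CBP-free sites and 28.8% at co-bound sites in H3K4me3. Of the co-bound sites 29 (13.3%) belonged to the upper 10% of the ETS1 list, against 23 CBP-free sites (3.32%). Their ETS1 peaks were wider, with a median of 130 bp against 100 bp. With CBP-free sites weighted to the ETS1 widths of the co-bound sites, the TFIIB difference was 25.9 points (18.2 to 33.6).

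In the CBP list of 6372 peaks, the co-bound sites ranged from rank 1 to rank 6051. Their CBP peaks had a median position of 20.5% (quartiles 7.12 and 47.0), and 70 (32.1%) belonged to the upper 10%. Where a site had several CBP peaks, the one of highest area was used. Some neighbouring sites shared a CBP peak, so the 218 sites held 215 distinct CBP peaks. The median distance between the ETS1 and CBP centres was 30 bp, and it was 50 bp or less at 164 sites (75.2%). Areas in the 2 lists were only weakly related over the 218 sites (Spearman's rho 0.145), and the sites share their chromatin and the same tracks.

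**Figure D4:**
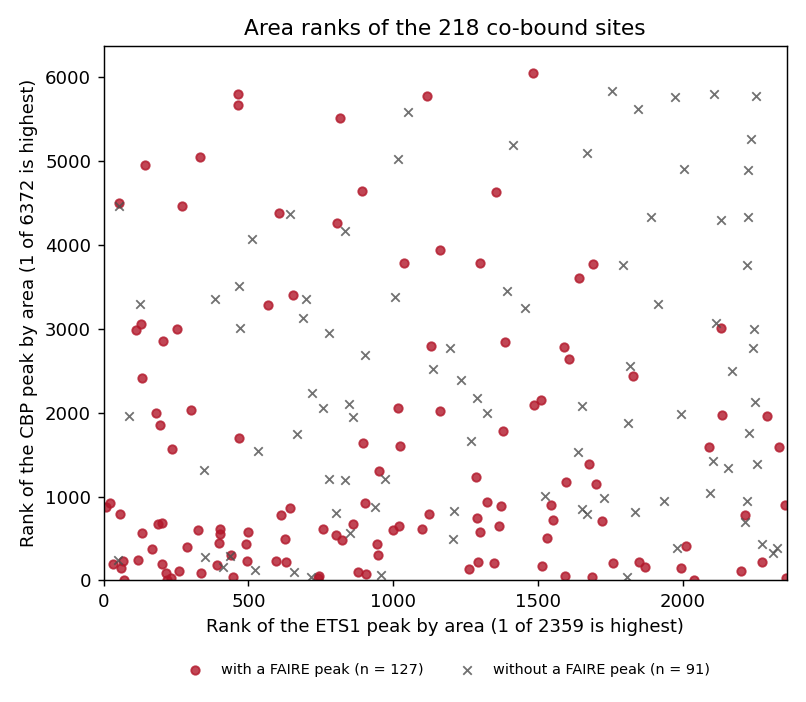
Area rank of each of the 218 co-bound sites in the ETS1 list (x axis, rank 1 of 2359 is the highest area) and in the CBP list (y axis, rank 1 of 6372 is the highest area, at the bottom), with filled circles for sites with a FAIRE peak and crosses for those without. Sites scatter over the ETS1 axis and gather at high CBP ranks, and 30 of the 37 sites in the upper 25% of both lists have a FAIRE peak.

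Sites high in both lists were more often open than sites low in both, and no other combination of ranks was counted. Of the 37 sites in the upper 25% of both, 30 had a FAIRE peak and 31 a TFIIB peak. Of the 23 in the lower 50% of both, 5 had a FAIRE peak and 14 (60.9%) a TFIIB peak. That TFIIB share was not below the 53.7% over all co-bound sites. In 4 bins of CBP area among co-bound sites, from lowest to highest, FAIRE was found at 41.8%, 46.3%, 68.5% and 76.4%. The difference between the outer bins was 34.5 points (16.3 to 49.8). TFIIE showed the steepest course, with 16.4%, 27.8%, 35.2% and 60.0% and an outer difference of 43.6 points (25.9 to 57.7). The outer difference was 27.3 points (8.90 to 43.2) for TBP and 16.4 points (2.74 to 29.8) for TFIIF.

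For TFIIB the outer bins of CBP area differed by 18.2 points (-0.0876 to 34.8) and for H3K4me1 by 9.09 points (-5.77 to 23.6), and neither passed. ETS1 strength was not even over the bins: from the lowest to the highest, the median position in the ETS1 list was 44.6%, 54.2%, 44.9% and 30.3%. Its part in these differences was not tested.

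Peak strength was therefore held similar in the main comparison by dividing the 911 distal peaks into 5 bins of ETS1 area. FAIRE, TBP, total Pol II, TFIIB, TFIIE and TFIIF were more frequent at co-bound than at CBP-free sites in 5 of 5 bins. In the lowest bin, with 33 co-bound and 149 CBP-free sites, TFIIB lay at 51.5% and 14.1%. In the highest bin, with 72 and 111 sites, it lay at 65.3% and 36.0%. Single bins hold few sites and some differences within them were small, such as TFIIB at 31.2% and 26.7% in the bin above the lowest and total Pol II at 20.8% and 18.9% in the highest. H3K4me1 was higher at co-bound sites in 1 of 5 bins. Weighted to the ETS1 areas of the co-bound sites, the TFIIB difference was 25.9 points (18.3 to 33.5).

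**Figure D5:**
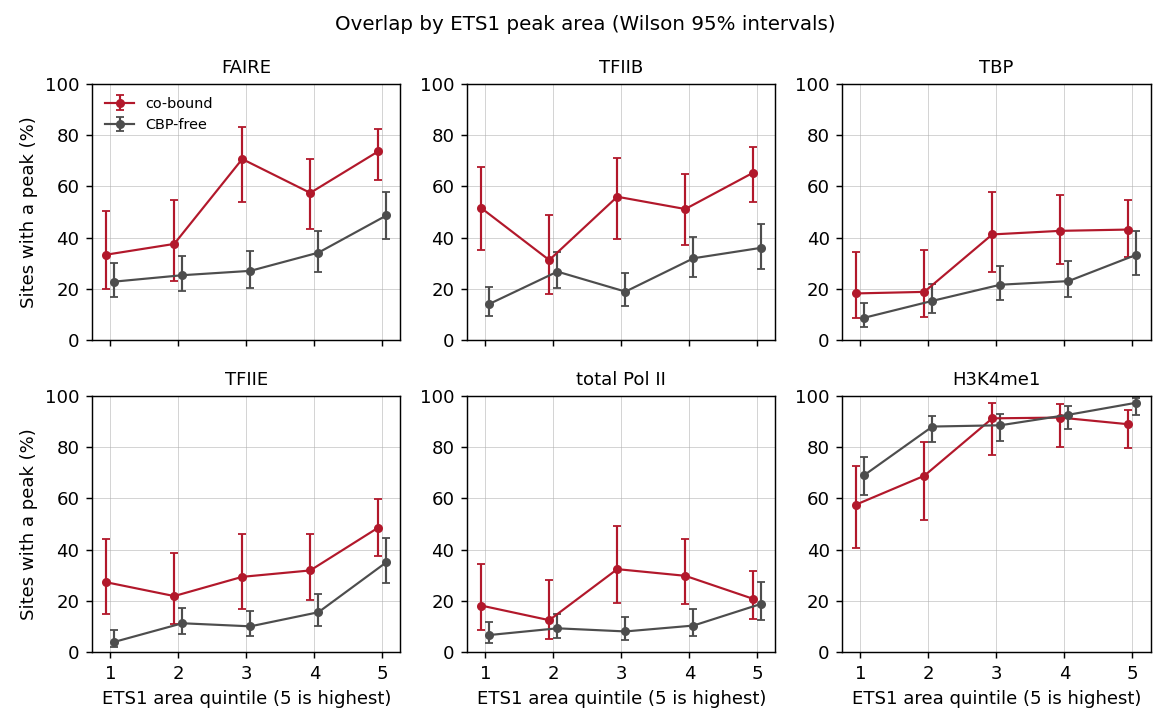
Share of sites with a peak (y axis, percent, with 95% Wilson intervals) by bin of ETS1 area (x axis, 1 lowest to 5 highest) for co-bound and CBP-free distal sites. TFIIB is higher at co-bound sites in every bin, from 51.5% against 14.1% in the lowest to 65.3% against 36.0% in the highest.

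Many co-bound sites lay beside H3K4me3 although none overlapped it. An H3K4me3 peak was within 1000 bp of 62 co-bound sites (28.4%) and of 102 CBP-free sites (14.7%). The rule used H3K4me3 peaks, so these distances are given without a test. Coverage by H3K4me3 was highest 400 bp from co-bound centres, at 13.5%, and 300 bp from CBP-free centres, at 6.06%. Among co-bound sites, those near H3K4me3 had TBP more often than the rest, at 50.0% against 29.5%, a difference of 20.5 points (6.25 to 34.3). Total Pol II was at 35.5% against 17.9% (17.5 points, 4.84 to 31.0), TFIIE at 50.0% against 28.8% (21.2 points, 6.91 to 34.9) and FAIRE at 69.4% against 53.8% (15.5 points, 1.01 to 28.3). TFIIB lay at 61.3% and 50.6%, and its 10.6 points (-4.00 to 24.2) did not pass. CBP-free sites near H3K4me3 also exceeded the rest, by 23.0 points (13.5 to 33.1) for TBP and 12.1 (4.96 to 21.2) for total Pol II. Their differences were 14.5 points (6.34 to 24.1) for TFIIE, 15.9 (5.88 to 26.1) for FAIRE and 18.0 (8.37 to 28.2) for TFIIB. With all sites within 1000 bp of H3K4me3 left out, TFIIB still lay at 50.6% of co-bound and 22.2% of CBP-free sites, a difference of 28.5 points (19.9 to 36.8).

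At the edges of the rule, 3 co-bound sites overlapped their CBP peak by 10 bp only, and 13 CBP-free sites had a CBP peak within 100 bp. The site on chromosome 14 at 17005961 to 17006210 was just inside, with ETS1 rank 206 and FAIRE, H3K4me1 and TFIIB peaks. The site on chromosome 5 at 141424241 to 141424360 was just outside, with a CBP peak 10 bp away and the same 3 lists present. On the H3K4me3 side, 3 co-bound sites touched an H3K4me3 peak and 24 lay within 50 bp of one.

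Single sites showed how varied the co-bound group was. All positions are in build mm9. The co-bound site of highest ETS1 area lay on chromosome 13 at 28643421 to 28643820, with ETS1 rank 8, CBP rank 872 and FAIRE, H3K4me1, TBP, total Pol II, TFIIB and TFIIE peaks. It was 33960 bp from the nearest H3K4me3 peak. Of the 8 co-bound sites of highest ETS1 area, TFIIB was found at 7, FAIRE and TFIIE at 6 each, TFIIF at 5 and TBP at 3. The site on chromosome 2 at 13335201 to 13335450 paired a strong ETS1 peak (rank 53) with a weak CBP peak (rank 4495), and had FAIRE, H3K4me1, TFIIB, TFIIE and TFIIF peaks without TBP or total Pol II.

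The highest CBP peak of the whole list lay on chromosome 8 over an ETS1 peak at 125225911 to 125225960. That ETS1 peak was 50 bp wide and had rank 2038, and FAIRE, H3K4me1, TFIIB and TFIIE were present. It lay 30 bp from an H3K4me3 peak. The CBP peak, 420 bp wide, extended past that gap on both sides and so overlapped H3K4me3 itself. On chromosome 16, the site at 96091971 to 96092220 had CBP rank 4 and ETS1 rank 220, with FAIRE, H3K4me1, TFIIA, TFIIB, TFIIE and TFIIF peaks. On chromosome 11, the site at 67939821 to 67939850 combined CBP rank 31 with ETS1 rank 2356, the lowest among co-bound sites, and had FAIRE, H3K4me1 and TFIIE peaks. All 5 co-bound sites of highest CBP area had a FAIRE peak.

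The fullest set of initiation factors stood on chromosome 1 at 99476881 to 99477000, with 8 of the 9 lists and all 6 general factors. It had a FAIRE peak and no H3K4me1 peak, and lay 78820 bp from H3K4me3. A site on chromosome 5 at 37436021 to 37436310 was high in both lists, with ETS1 rank 32 and CBP rank 200, and had 6 of the 9 lists. It lay 40 bp from an H3K4me3 peak. The 3 CBP-free sites of highest ETS1 area were varied too. On chromosome 12, the site at 112229761 to 112229990 (ETS1 rank 9) had FAIRE and H3K4me1 peaks and touched an H3K4me3 peak. It had 4 of the 9 lists, namely TBP, Ser5P, TFIIB and TFIIE. Those on chromosome 2 at 24603451 to 24603680 (rank 56) and on chromosome 19 at 26720671 to 26720900 (rank 68) had FAIRE and H3K4me1 peaks. These last sites had 0 of the 9 lists.

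Overlap with ETS1 was also counted from the CBP list, under a different rule. Here the CBP peak had to lie outside H3K4me3, whereas for co-bound sites the ETS1 peak had to. The CBP peaks counted here are therefore not the same set as those of the co-bound sites. Outside H3K4me3, 224 CBP peaks overlapped an ETS1 peak and 4284 did not. FAIRE lay at 57.6% of CBP peaks with ETS1 and 7.00% of those without, a difference of 50.6 points (44.0 to 56.9), with a share of 9.52% over all 4508 distal CBP peaks. H3K4me1 lay at 82.6% and 20.9% (61.7 points, 56.0 to 66.2, background 24%) and TFIIB at 52.7% and 6.21% (46.5 points, 39.9 to 52.9, background 8.52%). TBP differed by 16.2 points (10.2 to 22.7, background 18.6%), and by 5.33 points (-1.13 to 11.8) after matching on CBP area. Within CBP peaks that overlapped H3K4me1 it differed by 17.8 points (10.5 to 25.5). There the FAIRE difference fell to 37.7 points (30.0 to 44.9) and the TFIIB difference to 32.1 points (24.4 to 39.6). After matching on CBP area the FAIRE difference was 45.8 points (39.2 to 52.4) and the TFIIB difference 42.4 points (35.7 to 49.1). Both alternatives were chosen after seeing the data.

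Total Pol II lay at 22.3% and 16.8% (5.56 points, 0.470 to 11.6, background 17%), Ser5P at 11.2% and 5.49% (5.68 points, 2.12 to 10.5, background 5.77%) and Ser2P at 3.12% and 1.45% (1.68 points, 0.0246 to 4.88, background 1.53%). TFIIE differed by 15.3 points (9.40 to 21.8, background 18%) and TFIIF by 6.16 points (2.77 to 10.9, background 4.41%). None of these lists was matched on CBP area or limited to CBP peaks with H3K4me1.

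Taf1, TFIIH and TFIIA went the other way at distal CBP peaks. Taf1 lay at 6.25% of those with ETS1 and 17.1% of those without, a difference of -10.8 points (-13.6 to -6.70, background 16.5%), and TFIIH at 5.36% and 17.9%, a difference of -12.6 points (-15.1 to -8.64, background 17.3%). TFIIA lay at 4.46% and 10.1% (-5.60 points, -7.82 to -1.94, background 9.78%), and H3K36me3 at 0.893% and 4.58% (-3.68 points, -4.61 to -1.31, background 4.39%). The same alternatives, not run for TFIIA or H3K36me3, made the Taf1 and TFIIH differences larger after matching and smaller within H3K4me1. After matching on CBP area the differences were -20.3 points (-23.9 to -16.6) for Taf1 and -21.6 points (-25.1 to -18.2) for TFIIH. Within CBP peaks that overlapped H3K4me1 they were -2.95 points (-4.85 to 0.310) for Taf1 and -2.08 points (-5.33 to 2.59) for TFIIH, and neither passed. The CBP peaks with ETS1 were also stronger, with a median position of 26.4% against 57.0%.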

How the data were processed

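The authors deposited 1 peak list per target, with chromosome, start, end and the area of each peak under their signal track, in bins of 10 bp. The build was mm9, per the submitters' processing notes. Per the labels' protocols, ETS1 alone was precipitated on sheep anti-rabbit beads, and all other targets on Protein-G beads. Aligner, peak caller, threshold and read numbers: not given in the sources used here. No area was compared between lists.

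Overlap meant 1 bp or more in common. From the overlaps, shares with Wilson and differences with Newcombe 95% intervals were computed in Python 3.11.15 (numpy 2.4.6, pandas 2.3.3, scipy 1.17.1), and plots were drawn with matplotlib 3.10.9. The interval for the mean number of general factors came from the spread over sites. The overlap search, the distances between peaks and the Newcombe interval were tested on simulated data, and the other steps were not.

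The members, lists and tests were chosen with earlier results of these data known. Regions were named by rule: the 8 of highest ETS1 area, 5 of highest CBP area, 5 with most of the 9 lists, 5 of lowest ETS1 area, 3 of shortest CBP overlap, 3 nearest H3K4me3, and, among CBP-free sites, 3 nearest CBP and 3 of highest ETS1 area. The text gives some of each kind or their counts. The planned counts near T-cell genes were not run, since no mm9 sequence or annotation was used here. Regions therefore carry neither gene names nor sequences. Alternatives covered the overlap rule, window, thresholds, list length, distance to H3K4me3 and CBP, chromosomes, H3K4me1 and FAIRE classes, joined neighbours, and matching on ETS1 area or width. Matching, also on CBP area, meant weighting the comparison sites by 5 bins of that measure. No single sites were paired, and differences inside a bin remained.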

Additional observations from a re-analysis of the deposited data

How the results depend on the processing

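The differences between co-bound and CBP-free sites in FAIRE, TBP, total Pol II and the mean number of general factors kept their direction and their intervals left out 0 under every alternative run. They ranged from 15.1 to 32.7 points for FAIRE, 2.00 to 19.1 for TBP, 2.75 to 15.6 for total Pol II and 0.240 to 0.782 factors per site. The lowest of each came from lists cut to an equal length of 1262 peaks, which leaves fewer readout peaks. Few sites overlapped then, with TBP at 2.29% of co-bound and 0.289% of CBP-free sites, and total Pol II at 2.75% and 0.0%. TFIIB was then at 3.60 points. The H3K4me1 difference was negative throughout and its interval left out 0 in 5 settings. It was -8.46 points with an overlap of 50% of the shorter peak and -6.03 in the upper 50% of the H3K4me1 list. With neighbours within 1000 bp joined it was -5.53, matched on ETS1 area -7.17 and matched on ETS1 width -6.76. In the other 8 it did not pass, with -1.67 points (-7.39 to 3.07) on autosomes and -0.175 (-7.68 to 6.38) at sites with FAIRE. The cause was not tested. H3K36me3 turned to -0.118 points in the upper 50% of its list and to -0.943 at sites with FAIRE. Its main setting held 7 overlapping sites in all, and both of these settings held fewer. The calls were lost for Ser5P and TFIIA in 5 of 16 settings each, and gained for Taf1 in 5, TFIIH in 2 and Ser2P in 1. Equal length was not run for H3K4me1 and H3K36me3, which were not cut, or for TFIIF, the shortest list. No paired analysis was possible because each target has 1 list. Read depth is unknown, so a missing peak may lie below the authors' threshold.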

Other observations

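The sex chromosomes held 12 of the 218 co-bound sites (5.50%), 9 on X and 3 on Y, and 20 of the 693 CBP-free sites (2.89%). Of the 12 co-bound sites 11 had neither an H3K4me1 nor a FAIRE peak, and so had 17 of the 20 CBP-free sites. TFIIB was listed at 6 of the 12 and Taf1 at 4, while TBP and H3K4me1 were found at 0, which allows a share of up to 25.0%. Without these chromosomes the TFIIB difference between co-bound and CBP-free sites was 29.2 points (21.6 to 36.6), and the H3K4me1 difference -1.67 points (-7.39 to 3.07). Among autosomes the co-bound share of distal ETS1 peaks ranged from 5 of 43 on chromosome 6 (11.6%) to 10 of 24 on chromosome 19 (41.7%). Co-bound sites seldom lay close together: 10 (4.59%) had another within 1000 bp and 27 (12.4%) within 50000 bp.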
